A study of Mus musculus with 8 samples.

Results

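Hepcidin, encoded by Hamp, and 9 genes tied to its control in the liver were followed in 8 arrays from mice with colitis. The other members are the second mouse hepcidin gene Hamp2, the surface proteins Hjv, Hfe and Tfr2, the protease Tmprss6, the ligand Bmp6, and Id1, Smad7 and Atoh8, which respond to that ligand. The 10 genes were listed by name and were all measured, out of 22180 genes with a row of their own on the array. Each had 1 row that names it alone, so no choice between rows was needed.

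Liver RNA was read on 4 arrays labelled IL-10 knockout and 4 labelled wild-type, all from mice labelled as female C57BL/6 and aged 6 weeks. Every mouse had drunk 3% dextran sulfate sodium (DSS), which injures the lining of the colon, for 7 days, so no healthy mice enter the comparison. Interleukin-10 restrains inflammation, and the comparison asks how the liver transcripts of the mutant differ from those of the wild type when both have colitis. The labels do not describe the mutant allele. They also do not tie each array to a separate animal, and the tests below use only the spread among the arrays, part of which may be technical. Levels are log2 values from robust multi-array averaging (RMA), the error after ± is the SD (n = 4 in each group), and differences are knockout-labelled minus wild-type.

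Hepcidin is a peptide hormone that the liver releases into blood. It binds the iron exporter ferroportin and lowers the export of iron from gut cells and macrophages. In hepatocytes its gene is driven by bone morphogenetic protein (BMP) ligands, chiefly from endothelial cells of the sinusoids, which signal through receptors and SMAD proteins with Hjv as coreceptor, and in inflammation by interleukin-6 through STAT3.

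The upstream sequences of the hepcidin genes are shown because the BMP and STAT3 inputs are known to meet there. Both come from RefSeq, build GRCm38.p6, 250 bases before to 50 bases after the gene start, read 5′ to 3′ along the gene on the minus strand, at chr7:30943980-30944279 for Hamp and chr7:30924132-30924431 for Hamp2. Capitals mark GGCGCC, the core of a BMP-responsive element, and TTCNNNGAA, the form of a STAT site. Each motif was searched on both strands.
Hamp: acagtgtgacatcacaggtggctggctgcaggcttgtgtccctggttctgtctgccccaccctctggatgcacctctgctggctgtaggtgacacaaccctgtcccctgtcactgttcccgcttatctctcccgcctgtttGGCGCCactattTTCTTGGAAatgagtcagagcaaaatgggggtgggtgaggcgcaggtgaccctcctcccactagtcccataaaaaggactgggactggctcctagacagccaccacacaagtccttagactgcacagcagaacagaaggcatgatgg
Hamp2: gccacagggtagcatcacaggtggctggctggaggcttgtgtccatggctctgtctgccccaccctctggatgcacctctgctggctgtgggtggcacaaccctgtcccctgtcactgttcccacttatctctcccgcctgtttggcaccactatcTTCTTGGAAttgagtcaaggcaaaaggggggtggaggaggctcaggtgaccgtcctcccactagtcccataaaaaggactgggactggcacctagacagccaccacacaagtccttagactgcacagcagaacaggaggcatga

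The windows shared 276 of 297 aligned bases (92.9%). Hamp held GGCGCC from 109 to 104 bases before the start, and TTCTTGGAA 6 bases further on. In Hamp2 the STAT form was the same, while the aligned 6 bases differed from GGCGCC by G4A, counted from 1 at the 5′ end of the motif. Among all 32851 windows of this length, 11.9% held GGCGCC, 8.3% held TTCNNNGAA and 0.645% held both. Of the 10 genes, 6 had windows in the table, 8 in all. GGCGCC occurred in Hamp alone and TTCNNNGAA in Hamp and Hamp2, while the windows of Hfe, Tfr2, Bmp6 and Atoh8 held neither. A match describes letters in a window and is no evidence of binding.

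Some facts of the arrays bear on every value below. Array medians lay between 6.09 and 6.22. The row of Il10, the mutated gene, averaged 5.97 ± 0.32 in knockout-labelled arrays and 4.97 ± 0.08 in wild-type arrays. It was thus called higher, not lower, under the knockout label (difference 1.00, limma adjusted p = 0.00851). The labels do not place the mutation relative to its probes, so directions rest on the labels. Although all mice are labelled female, replicates 1 and 2 of each group carried Y-linked signal (mean of Eif2s3y, Kdm5d and Uty between 8.20 and 8.52) and low Xist, while replicates 3 and 4 carried Xist signal (11.68 to 11.82). Results are therefore also given within each of these sets of 4 arrays, 2 per label. As a check of the tissue, the 8 hepatocyte markers averaged 13.02 to 13.12 in knockout-labelled arrays and 13.01 to 13.05 in wild-type arrays. Tat was called higher (0.51, limma adjusted p = 0.0247) and 7 were not called, against 3.15% of all genes called. At an unadjusted p below 0.05 in limma there were 3 of the 8, in both directions, against 21.2% of all genes. Skeletal muscle, which also makes Hjv, showed 6 markers averaging 5.90 to 6.03 in knockout-labelled arrays and 5.84 to 6.03 in wild-type arrays, and none was called by limma (0 at an unadjusted p below 0.05).

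Genes were compared with limma over all 22180 genes and called at a Benjamini-Hochberg adjusted p below 0.05. Of the 10 genes, 1 was called, Hamp, against 3.15% of all genes (1.56% higher and 1.59% lower; 347 and 352 genes, or 209 and 330 after every array is set to a common median). The groups did not overlap for 4 of the 10, with Hamp, Hfe and Smad7 higher and Tmprss6 lower, against 12.9% of all genes. At an unadjusted p below 0.05 in limma there were 5 of the 10, against 21.2% of all genes. The median difference of the 10 genes was 0.13 and that of all genes 0.025. The plot of levels in each array shows all 10.

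**Figure D1:**
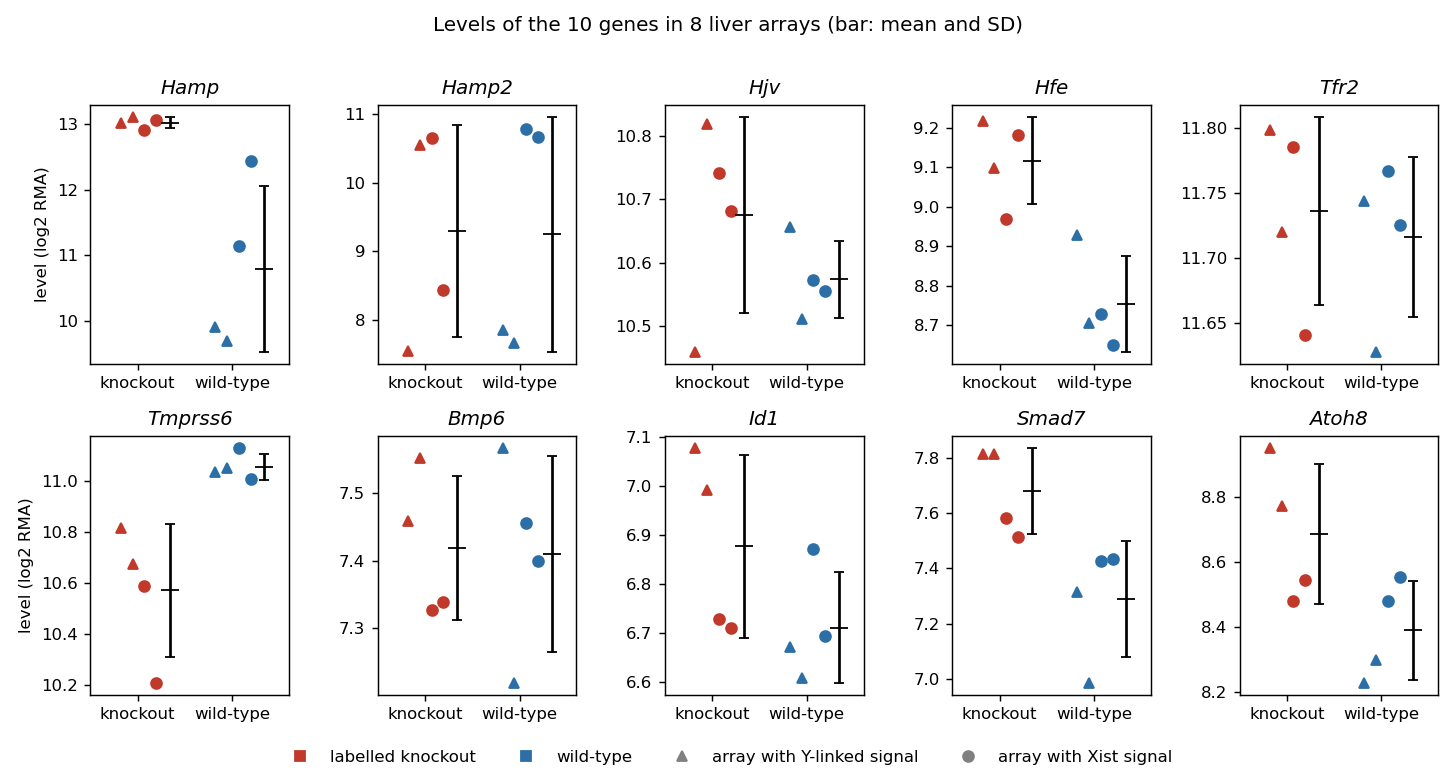
Levels (log2 RMA, vertical axes with a separate range for each gene) of the 10 genes in knockout-labelled (red) and wild-type (blue) arrays, with mean and SD bars; triangles are arrays with Y-linked signal and circles arrays with Xist signal. Hamp lies between 12.91 and 13.11 in all knockout-labelled arrays, against 9.69 to 12.43 in wild-type arrays, and Hamp2 splits 4 and 4 across the labels.

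Hepcidin rose in the knockout-labelled livers. Hamp read 13.01, 13.11, 12.91 and 13.06 in knockout-labelled replicates 1 to 4, against 9.91, 9.69, 11.13 and 12.43 in wild-type replicates 1 to 4. All 4 knockout-labelled arrays stood within 0.20 of each other and above every wild-type array, while the wild-type arrays spread over 2.74. The difference was 2.23 (SE 0.49; 4.69-fold; 95% interval of the log2 difference 1.13 to 3.33; limma adjusted p = 0.0425). An exact two-sided permutation test gave p = 0.0286, the smallest that 70 arrangements allow. In log2 terms the SD was 0.08 in knockout-labelled arrays and 1.26 in wild-type arrays, where Hamp ranked 28 of 22180 genes by SD. limma pools these unequal spreads, and with trend and robust settings the adjusted p was 0.107.

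The size of the Hamp difference varied with the set of arrays. It was 3.26 in arrays with Y-linked signal (limma adjusted p = 0.000681) and 1.20 in arrays with Xist signal (limma adjusted p = 0.199). The wild-type arrays with Xist signal held the 2 highest wild-type values, 11.13 and 12.43. The difference between the sets was 2.06 (SE 0.46; unadjusted p = 0.00169), with a limma interaction adjusted p of 0.521 over all genes. Of the 8 fits that each left out 1 array, Hamp was called in 1, the fit without wild-type replicate 4 (2.78; limma adjusted p = 0.0110). Left out singly, the other 3 wild-type arrays gave differences from 1.86 to 2.34, and the 4 knockout-labelled arrays from 2.20 to 2.27. The limma adjusted p without wild-type replicates 1, 2 or 3 was 0.120, 0.0959 and 0.0955, and without knockout-labelled replicates 1 to 4 it was 0.0562, 0.0746, 0.0714 and 0.109.

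Hamp2, the second hepcidin copy of the mouse, which is not known to act on iron as Hamp does, did not follow the labels. It read 7.55, 10.55, 10.65 and 8.44 in knockout-labelled replicates 1 to 4, against 7.86, 7.68, 10.79 and 10.66 in wild-type replicates 1 to 4. The 8 values fell into 4 low ones, from 7.55 to 8.44, and 4 high ones, from 10.55 to 10.79, with 2 arrays of each label in either part and a gap of 2.11 between them. The means were 9.30 ± 1.55 in knockout-labelled arrays and 9.25 ± 1.71 in wild-type arrays (difference 0.050, 95% interval -1.94 to 2.04; limma adjusted p = 0.980). Both groups held low and high arrays, and the interval is correspondingly wide.

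The levels of Hamp2 were among the most variable on the array, ranking 24 by SD in knockout-labelled arrays and 19 in wild-type arrays of 22180 genes. The high values were not those of the arrays with Xist signal alone: knockout-labelled replicate 2, with Y-linked signal, read 10.55, and knockout-labelled replicate 4, with Xist signal, read 8.44. In knockout-labelled arrays Hamp2 spanned 3.10 while Hamp spanned 0.20. Hamp lay near the top of the scale there, with a mean of 13.02 where the highest value of any gene was 13.65, and whether its signal is compressed at that level was not tested. Because the copies are alike in sequence, hybridisation of one transcript to the other's probes was not tested. As Hamp2 falls into separate clusters of 4 arrays, no correlation with Hamp over all 8 arrays is given for it; that pair did not pass among the 45 pairs described below.

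Hjv, the BMP coreceptor hemojuvelin, read 10.46, 10.82, 10.74 and 10.68 in knockout-labelled arrays, against 10.66, 10.51, 10.57 and 10.56 in wild-type arrays. The groups overlapped, with the lowest and the highest value both under the knockout label (difference 0.10, SE 0.09, 95% interval -0.09 to 0.29; limma adjusted p = 0.522). Tfr2, a receptor through which hepatocytes sense iron-loaded transferrin, had 11.74 ± 0.07 in knockout-labelled arrays and 11.72 ± 0.06 in wild-type arrays. Its values ran from 11.64 to 11.80 under the knockout label and from 11.63 to 11.77 in wild-type arrays, and the 95% interval of the difference was -0.13 to 0.17 (limma adjusted p = 0.888).

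Hfe, the MHC-like partner of the transferrin receptors whose loss causes hemochromatosis, read 9.22, 9.10, 8.97 and 9.18 in knockout-labelled arrays, against 8.93, 8.71, 8.73 and 8.65 in wild-type arrays. Every knockout-labelled value was above every wild-type one, with knockout-labelled replicate 3 and wild-type replicate 1 the nearest. The difference was 0.36 (SE 0.09; 1.29-fold, 95% interval 1.13 to 1.47) and missed the threshold (limma adjusted p = 0.0522; exact permutation p = 0.0286). It was 0.34 in arrays with Y-linked signal and 0.38 in arrays with Xist signal.

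Tmprss6, the membrane protease that cleaves hemojuvelin and so lowers hepcidin, read 10.82, 10.67, 10.59 and 10.21 in knockout-labelled arrays, against 11.03, 11.05, 11.13 and 11.00 in wild-type arrays. All knockout-labelled values lay below the wild-type ones, and they spread more widely (SD 0.26 in knockout-labelled arrays and 0.05 in wild-type arrays). The difference was -0.48 (SE 0.12; 0.715-fold, 95% interval 0.596 to 0.858; limma adjusted p = 0.0575; exact permutation p = 0.0286). It was -0.30 in arrays with Y-linked signal and -0.67 in arrays with Xist signal, opposite in order to Hamp, whose larger difference was in arrays with Y-linked signal.

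With Xist and Y-linked signal as a block in the same fit, 3 of the 10 genes were called, against 4.68% of all genes. These were Hamp (limma adjusted p = 0.0181), Hfe (limma adjusted p = 0.0431) and Tmprss6 (limma adjusted p = 0.0425). Without knockout-labelled replicate 3 Hfe passed (limma adjusted p = 0.0397), and without knockout-labelled replicate 1 Tmprss6 did (-0.56; limma adjusted p = 0.0289), as the plot of adjusted p with each array left out shows.

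**Figure D2:**
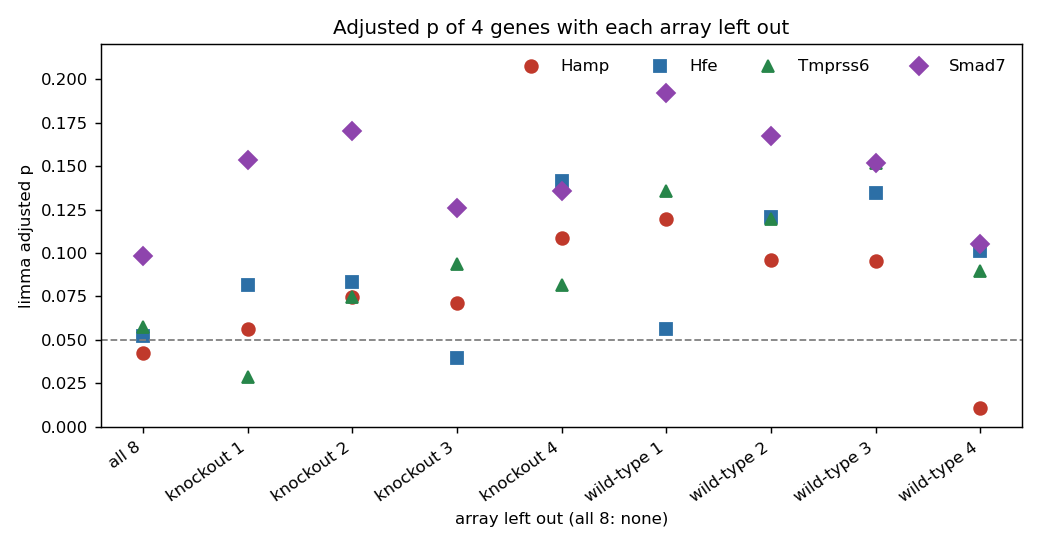
Adjusted p from limma (vertical axis) of Hamp, Hfe, Tmprss6 and Smad7 with all 8 arrays and with each array left out (horizontal axis); the dashed line marks 0.05. Hamp falls below the line with all 8 arrays (0.0425) and without wild-type replicate 4 (0.0110), Hfe and Tmprss6 each without 1 knockout-labelled array, and Smad7 in none.

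Bmp6, the ligand that sets hepcidin according to iron stores, did not move with the labels. It read 7.46, 7.55, 7.33 and 7.34 in knockout-labelled arrays, against 7.57, 7.22, 7.46 and 7.40 in wild-type arrays. The ranges overlapped throughout, and both the highest and the lowest value were wild-type (difference 0.0087, 95% interval -0.19 to 0.21; limma adjusted p = 0.966). Of 9 markers of sinusoidal endothelium, the cells known to make Bmp6, Lyve1 rose (1.05, limma adjusted p = 0.0066) and 8 were not called. Over all genes 1.56% were called higher. At an unadjusted p below 0.05 in limma there were 6 of the 9, against 21.2% of all genes. These went in both directions, with Stab1 at 0.27, Emcn at -0.45 and Kdr at -0.37. The mean level of the 9 markers was 9.74 to 9.82 in knockout-labelled arrays and 9.54 to 9.85 in wild-type arrays. In RNA of whole liver, fewer cells of a type and less RNA per cell cannot be told apart.

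Of the BMP-SMAD target genes among the members, Id1, Smad7 and Atoh8, none was called between the labels. Smad7, an inhibitory SMAD that feeds back on the pathway, read 7.81, 7.81, 7.58 and 7.51 in knockout-labelled arrays, against 7.31, 6.98, 7.43 and 7.43 in wild-type arrays. The groups stood apart, with knockout-labelled replicate 4 nearest to wild-type replicates 3 and 4 (difference 0.39, SE 0.12, 95% interval 0.13 to 0.65; limma adjusted p = 0.0981; exact permutation p = 0.0286). Its difference was 0.66 in arrays with Y-linked signal and 0.12 in arrays with Xist signal.

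Id1, an inhibitor of DNA-binding factors and a standard readout of BMP signalling, read 7.08, 6.99, 6.73 and 6.71 in knockout-labelled arrays, against 6.67, 6.61, 6.87 and 6.69 in wild-type arrays. Only knockout-labelled replicates 1 and 2 were above the whole wild-type range (difference 0.17, SE 0.10; limma adjusted p = 0.376). Atoh8, a helix-loop-helix factor that can activate the hepcidin promoter in cultured cells, read 8.95, 8.77, 8.48 and 8.54 in knockout-labelled arrays, against 8.23, 8.30, 8.48 and 8.55 in wild-type arrays. Here too replicates 1 and 2 under the knockout label were the highest and wild-type replicates 1 and 2 the lowest (difference 0.30, SE 0.12; limma adjusted p = 0.186).

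Within the sets, Id1 differed by 0.40 in arrays with Y-linked signal and by -0.064 in arrays with Xist signal. Atoh8 differed by 0.60 in arrays with Y-linked signal and by -0.0050 in arrays with Xist signal. The differences between sets were 0.46 for Id1, 0.55 for Smad7 and 0.61 for Atoh8 (unadjusted p = 0.0150, 0.0130 and 0.00351). None of the 10 genes passed the limma interaction test over all genes (adjusted p = 0.823 for Id1 and Smad7, 0.648 for Atoh8), against 0.0271% of all genes. At an unadjusted p below 0.05, 4 of the 10 had an interaction, against 5.48% of all genes. Each set holds 2 arrays per label, and what else separates replicates 1 and 2 from 3 and 4 cannot be told apart from the Xist and Y-linked signal.

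**Figure D3:**
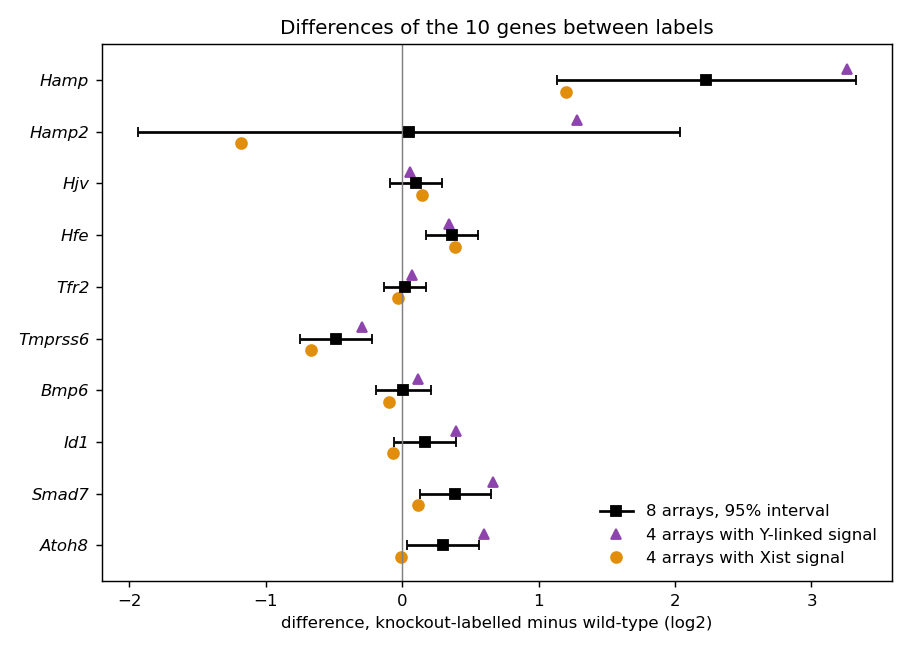
Differences of the 10 genes, knockout-labelled minus wild-type (log2, horizontal axis), with 95% intervals from limma over 8 arrays (squares), and the differences in the 4 arrays with Y-linked signal (triangles) and the 4 with Xist signal (circles). Hamp has the largest difference (2.23), Hamp2 the widest interval (-1.94 to 2.04), and Smad7, Id1 and Atoh8 lie further right in arrays with Y-linked signal.

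Members were also set against each other across the 8 arrays, in 45 pairs. Hamp and Smad7 were the 1 pair to pass after adjustment over the pairs (Pearson r = 0.86, exact permutation p = 0.000422, adjusted p = 0.0190; Spearman rho = 0.93, exact permutation p = 0.00223, adjusted p = 0.100). The label difference itself contributes to such a value, since Hamp was higher in every knockout-labelled array. Without wild-type replicates 1 and 2, the arrays farthest from the Hamp median, r was 0.64. After each group's mean was removed r was 0.61 (exact permutation p = 0.193 over 576 within-group pairings), so the relation was not shown within groups. As Hamp hardly varied in knockout-labelled arrays, that value rests mainly on the 4 wild-type arrays. Each set of arrays holds only 4, and r is not given within them.

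Id1, Smad7 and Atoh8 varied together with values of r from 0.83 to 0.88. Id1 and Atoh8 had r = 0.88 (exact permutation p = 0.00313, adjusted p = 0.0703; rho = 0.76, exact permutation p = 0.0368), Id1 and Smad7 r = 0.83 (exact permutation p = 0.00699, adjusted p = 0.0893; rho = 0.83, exact permutation p = 0.0154), and Smad7 and Atoh8 r = 0.86 (exact permutation p = 0.00794, adjusted p = 0.0893; rho = 0.79, exact permutation p = 0.0279). With group means removed these values were 0.84, 0.79 and 0.72, and no pair of the 45 passed after adjustment (lowest adjusted p = 0.406; 2 pairs at an unadjusted p below 0.05). Without the 2 farthest arrays, knockout-labelled replicates 1 and 2 for Id1, r was 0.47 with Atoh8 and 0.58 with Smad7, so these relations of Id1 rest in part on those arrays. Smad7 and Atoh8 had r = 0.92 without wild-type replicate 2 and knockout-labelled replicate 2, the farthest for Smad7.

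Hamp and Atoh8 did not pass (r = 0.79, exact permutation p = 0.0222, adjusted p = 0.200; rho = 0.76, exact permutation p = 0.0368), with r = 0.48 without wild-type replicates 1 and 2. For Hamp and Tmprss6 r was -0.69 (exact permutation p = 0.0483, adjusted p = 0.272) and rho -0.81 (exact permutation p = 0.0218). With group means removed r was -0.038, a value that was bound to be small. Hamp varied mainly in wild-type arrays (SD 1.26, against 0.08 in knockout-labelled arrays). Tmprss6 varied mainly in knockout-labelled arrays (SD 0.26, against 0.05 in wild-type arrays). The value therefore cannot show whether the 2 genes are related within groups. Hamp against Id1 had r = 0.55 (exact permutation p = 0.155, adjusted p = 0.466; rho = 0.71, exact permutation p = 0.0576) and 0.096 without wild-type replicates 1 and 2. The plot of these genes against Hamp shows that knockout-labelled arrays share 1 level of Hamp while Id1, Smad7, Atoh8 and Tmprss6 still vary among them.

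**Figure D4:**
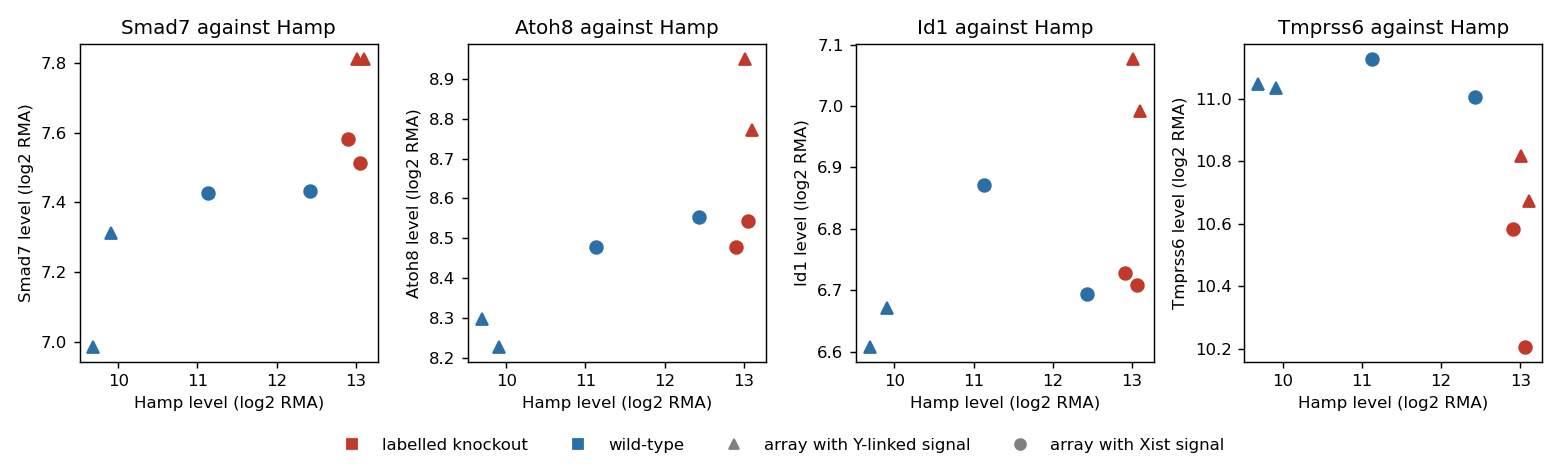
Levels (log2 RMA) of Smad7, Atoh8, Id1 and Tmprss6 (vertical axes) against Hamp (horizontal axes) in 8 arrays; red is knockout-labelled and blue wild-type, triangles have Y-linked and circles Xist signal. Smad7 and Hamp have r = 0.86 over 8 arrays, while the 4 knockout-labelled arrays lie in a column at Hamp values from 12.91 to 13.11.

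By Pearson r over the 8 arrays, the genes whose pattern was most like Hamp were Agpat1 (r = 0.98), Btbd11 and Tbkbp1 (0.97 each), and Clcf1 and C2cd2l (0.96 each), with predicted genes and small RNAs left out. Clcf1 is a cytokine of the interleukin-6 family, and of these 5 genes it was the 1 called (difference 0.37; limma adjusted p = 0.0287). The most opposite were Clec2h (-0.97), Olfr788 and Slc17a8 (-0.96 each). With group means removed, Pate11 (0.97), Gimap8 (0.96), Clcf1 (0.96), H2-Q1 and Aldh3b3 (0.95 each) were closest. Hamp hardly varied in knockout-labelled arrays (SD 0.08, against 1.26 in wild-type arrays), so these last values rest mainly on the 4 wild-type arrays. Among the 22180 genes Smad7 ranked 295 by likeness to Hamp and Atoh8 797. These genes were picked for the likeness, so it carries no test.

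Around the members, 3 ligands of the BMP and activin family fell. Of 16 ligands and antagonists measured, these 3 were called, against 3.15% of all genes. The other 13 were not called (median difference 0.062, against 0.025 for all genes). At an unadjusted p below 0.05 in limma there were 9 of the 16, in both directions, against 21.2% of all genes. Inhba, a subunit of activin A, averaged 7.70 ± 0.41 in knockout-labelled arrays and 8.67 ± 0.31 in wild-type arrays (-0.97; limma adjusted p = 0.0371). Bmp5 differed by -0.73 (limma adjusted p = 0.0499) and Bmp10, a ligand in blood, by -0.51 (limma adjusted p = 0.0447). Bmper, a secreted BMP-binding protein, had 7.46 ± 0.89 in knockout-labelled arrays and 6.01 ± 0.56 in wild-type arrays and was not called (1.45; limma adjusted p = 0.0857), but passed with Xist or Y-linked signal as a block (limma adjusted p = 0.00337). Fst, which binds activins (0.47), and Twsg1 (-0.32) were not called either. No gene of this list was called without any 1 of knockout-labelled replicates 2 or 4 or wild-type replicates 1 to 4, nor within the arrays with Y-linked signal.

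Receptors, SMAD proteins and processing enzymes were not called. None of 12 BMP receptors and coreceptors passed limma (1 at an unadjusted p below 0.05, against 21.2% of all genes; median -0.018), and the type II receptor Bmpr2 had the smallest p (0.22; limma adjusted p = 0.167), ahead of Eng (-0.15) and Rgmb (-0.12). Among 11 SMAD proteins and other BMP targets 0 passed (3 at an unadjusted p below 0.05, against the same 21.2%; median -0.026). Id3, like Id1 an inhibitor of DNA-binding factors, averaged 8.38 ± 0.53 in knockout-labelled arrays and 7.67 ± 0.25 in wild-type arrays (0.71; limma adjusted p = 0.126). Id3 differed by 1.31 in arrays with Y-linked signal (limma adjusted p = 0.0385) and 0.12 in arrays with Xist signal (interaction adjusted p = 0.520). In the same list Id2 differed by 0.096 in arrays with Y-linked signal and -0.23 in arrays with Xist signal, and Id4 by 0.064 in arrays with Y-linked signal and 0.11 in arrays with Xist signal. Id2 and Id4 were chosen after their values were seen. Smad9 (-0.35) and the ubiquitin ligase Smurf1 (-0.22) followed. Of 7 genes of hepcidin processing and hemojuvelin cleavage 0 passed limma (2 at an unadjusted p below 0.05; median -0.038), with Pcsk6 at -0.27, Serpina1d at -0.15 and Pcsk5 at 0.20.

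In the interleukin-6 and STAT3 arm, 2 of 15 genes rose, 1 fell and 12 were not called (median 0.069). Over all genes 1.56% were called higher and 1.59% lower. At an unadjusted p below 0.05 in limma there were 8 of the 15, against 21.2% of all genes. The mean level of the list was 9.36 to 9.52 in knockout-labelled arrays and 9.11 to 9.28 in wild-type arrays. Il22ra1, a subunit of the interleukin-22 receptor on hepatocytes, averaged 10.14 ± 0.21 in knockout-labelled arrays and 8.88 ± 0.35 in wild-type arrays (1.26; limma adjusted p = 0.00730), and was called in all 19 alternatives tried. Cebpd, an acute-phase transcription factor, rose by 0.84 (limma adjusted p = 0.0292), while Lifr, the receptor subunit for leukemia inhibitory factor, fell by 0.66 on the log2 scale (limma adjusted p = 0.0379). Osmr, which binds oncostatin M, differed by 0.92 (limma adjusted p = 0.0538, or 0.00556 with Xist or Y-linked signal as a block), and Creb3l3, a liver transcription factor that can act on the hepcidin promoter, by 0.32 (limma adjusted p = 0.0622). Stat3 (0.24, limma adjusted p = 0.103) and its feedback target Socs3 (0.63, limma adjusted p = 0.124) were not called. Il6 itself, named after its values were seen, was not called either (-0.22, limma adjusted p = 0.178). Its level was low, at 4.14 ± 0.11 in knockout-labelled arrays and 4.36 ± 0.12 in wild-type arrays. Il22ra1 alone was called without knockout-labelled replicate 4 or any 1 of wild-type replicates 1 to 3, or within the arrays with Y-linked signal.

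**Figure D5:**
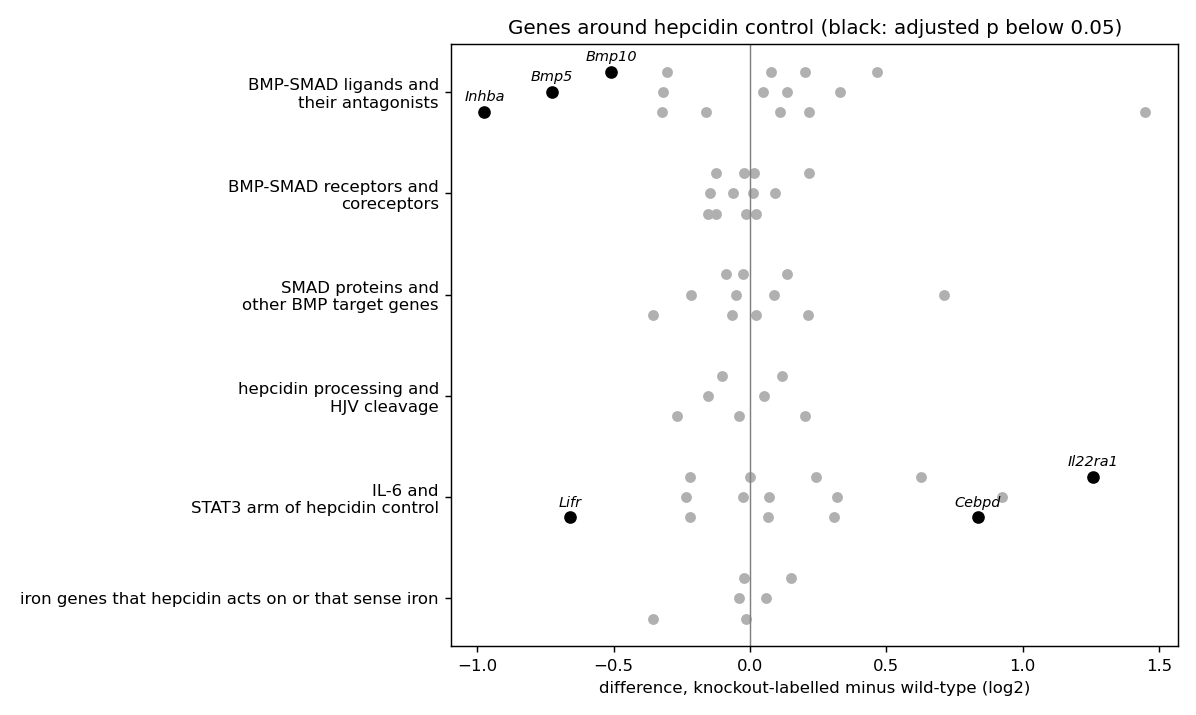
Differences, knockout-labelled minus wild-type (log2, horizontal axis), of the measured genes in 6 lists around hepcidin control (rows; vertical offsets only separate points), with genes at a limma adjusted p below 0.05 in black. The called genes are Inhba, Bmp5 and Bmp10, Il22ra1 and Cebpd, and Lifr; the grey point at 1.45 is Bmper.

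Of 6 measured iron genes that hepcidin acts on or that sense iron, 0 passed limma, against 3.15% of all genes (median -0.017). At an unadjusted p below 0.05 in limma there was 1, against 21.2% of all genes. Trf and Ftl1, also listed, had no row of their own. Ferroportin, Slc40a1, which hepcidin removes from the cell surface as a protein, had 10.67 ± 0.30 in knockout-labelled arrays and 10.61 ± 0.11 in wild-type arrays (limma adjusted p = 0.826). The transferrin receptor Tfrc had 7.67 ± 0.31 in knockout-labelled arrays and 7.69 ± 0.65 in wild-type arrays (limma adjusted p = 0.972). Wild-type replicate 1 read 8.66, against 7.34 to 7.39 in the other wild-type arrays, so that mean and SD rest largely on 1 array. Aco1, an iron-sensing regulator of messenger RNA, differed by -0.35 (limma adjusted p = 0.118), Ireb2 by 0.15 and B2m, the partner chain of Hfe, by -0.039.

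Some inflammatory and blood cell markers also differed between the labels, and their relation to Hamp from array to array was not tested. Saa3, an acute-phase serum amyloid, averaged 12.75 ± 0.42 in knockout-labelled arrays and 9.37 ± 0.50 in wild-type arrays (limma adjusted p = 0.00267). Over all genes 1.56% were called higher and 1.59% lower. Of 11 neutrophil markers 8 were called higher, with mean levels of 7.03 to 7.67 in knockout-labelled arrays and 6.14 to 6.49 in wild-type arrays. Of 11 Kupffer cell and macrophage markers 6 were called higher, with mean levels of 9.80 to 10.28 in knockout-labelled arrays and 9.24 to 9.55 in wild-type arrays. Of 7 erythroid markers Car1 and Tspan33 fell and 5 were not called, with mean levels of 5.99 to 6.11 in knockout-labelled arrays and 6.21 to 6.57 in wild-type arrays. The ranges of these 3 lists did not overlap between labels, as with Hamp, and their part in the result was not tested.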

How the data were processed

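Biotin-labelled liver RNA was read on Affymetrix Mouse Gene 2.0 ST arrays. The submitters' processing notes name RMA and R 3.0.1 for the deposited log2 values. They state neither RMA's settings nor a genome build. The table holds 41345 rows for 8 arrays. The platform annotation names 1 gene for 23521 rows, several for 1814 and none for 16010. For each of 22180 genes the brightest row (mean of 8 arrays) was used. All 10 members matched the RefSeq table of GRCm38.p6 by gene number and symbol. Probe intensities were not used, so precision is set by having 4 arrays in each group.

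Alternatives were other gene filters, scalings, spread models, blocks, sets of arrays, and leaving out each array. limma 3.58.1 (lmFit, eBayes) in R 4.3.3 compared all 8 arrays without covariates or a filter on low values. Python 3.11.15 gave correlations and exact permutation tests (40320 pairings of 8 arrays), Biopython 1.88 the alignment, and matplotlib 3.10.9 the figures. The limma step was tested on simulated data (4 arrays in each group, 200 changed genes among 22180) and recovered 64% at 1.5-fold, 94.5% at 2-fold and 99.5% at 3-fold, with 8, 9 and 14 false calls.

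The members, lists, tests and alternatives were chosen with earlier results of these data known. Named genes were the members, Il10, Saa3, Socs3, Stat3, Slc40a1, Tfrc, the called and the next 3 genes by p of each pathway list, up to 4 genes of a marker list, and those most like or opposite Hamp. Both groups use replicate numbers 1 to 4, whose meaning the labels do not state. Deviations from group means of same-numbered arrays correlated at 0.27, 0.04, -0.10 and 0.29, so the main fit has no replicate block.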

Additional observations from a re-analysis of the deposited data

Results flagged for a closer look

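In 3 cases a single array stood apart from the others of its group by Dixon's criterion, and chance flags about 1 in 20 groups. The screen covered 68 groups of 4 arrays over 34 genes. These were the 10 members and the called and next 3 genes by p of each pathway list. Other named genes, such as Tfrc, Slc40a1 and Socs3, were not screened. Eng, an endothelial BMP coreceptor, read 11.06 in knockout-labelled replicate 1, against 10.85 to 10.86 in the others. Il22ra1 read 8.36 in wild-type replicate 2, below the others, which reached 9.09; the gap to the nearest was 0.874 of the group's range. Lifr read 10.98 in wild-type replicate 3, against 10.72 to 10.75 in the others. None of the 10 members had such an array.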

How the results depend on the processing

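Hamp kept its direction under all 19 alternatives and was called in 10. It was not called with trend and robust settings (2.23; limma adjusted p = 0.107) or in arrays with Xist signal (1.20), and ran from 1.86 to 2.78 with single arrays left out. Of the members, 3 were called with the lowest 40% of genes left out, where 812 genes were called in all. With Xist or Y-linked signal as a block 3 were called, against 4.68% of all genes. There were 2 with quantile normalization, 2 with cyclic loess and 2 with array weights. In arrays with Xist signal limma called 0 (3 at an unadjusted p below 0.05, against 16.5% of all genes). At an adjusted p below 0.1 there were 4, and with single arrays left out 0 to 1. The number of all genes called also moved with the setting, so these counts are not read as a result about the members. Over all genes, 699 were called, but 317 in arrays with Xist signal, 171 in those with Y-linked signal, 1685 at an adjusted p below 0.1, and 207 to 1040 with single arrays left out. A common median, which shifts the median difference by -0.05, gave 209 higher and 330 lower, against 347 and 352 as deposited, and 0 of the 45 pairs passed with it. With the replicate block Hamp had a limma adjusted p of 0.0462 and 497 genes were called; Inhba (0.0670) and Lifr (0.0676) no longer passed, while Bmper (0.00926) and Osmr (0.00564) did.

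Differences near 0 changed sign. Hamp2 was at -0.0012 with a common median, -0.16 with array weights, -1.18 in arrays with Xist signal and -0.47 to 0.63 with single arrays left out. Tfr2 was at -0.031 with a common median, -0.033 in arrays with Xist signal and -0.0092 to 0.052 with single arrays left out. Bmp6 was at -0.042 with a common median, -0.0020 with cyclic loess, -0.10 in arrays with Xist signal and -0.055 to 0.061 with single arrays left out. In arrays with Xist signal Id1 was at -0.064 and Atoh8 at -0.0050. The cause of these changes was not tested. On simulated data with 4 arrays in each group 64% of 1.5-fold, 94.5% of 2-fold and 99.5% of 3-fold changes were called.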
